A study of Mus musculus with 50 samples.

Results

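The circadian clock genes measured here were Clock, Per1, Per2, Per3, Cry1, Cry2, Nr1d1, Nr1d2, Dbp and Tef, read in mouse hippocampus on Agilent two-color arrays. A member was every non-control probe whose RefSeq accession names 1 of these 10 genes, which gave 18 of the 41174 probes of the array, and the rule uses no measured value. The study compared the hippocampus of wild-type (WT) mice, male C57/BL6j, with that of transgenic (TG) male mice of the same background that overexpress DCLK-short, a splice product of the doublecortin-like kinase gene Dclk1. WT1, WT3, WT4, WT5 and WT6 formed the WT group and TG1, TG2, TG3, TG4 and TG5 the TG group. Each of the 10 arrays took the RNA of 1 WT and 1 TG mouse, 1 in Cy3 and 1 in Cy5, and each mouse was used on 2 arrays, once in each dye. Arrays are written with the Cy3 mouse first, so WT1/TG4 held WT1 in Cy3 and TG4 in Cy5. All mice lived alone in their cages under a regular light/dark cycle before the brain was taken. The hour of day at which each mouse was killed, the promoter of the transgene and the age of the mice were not given in the sources used here. The ABI one-color arrays of the series were not used for these genes, because none of their 311 probes with a gene name is one of the 10.

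The clock of mammalian cells is a feedback loop of transcription. CLOCK pairs with BMAL1, the product of Arntl, and the pair switches on genes that carry an E-box, among them the Per and Cry genes. PER and CRY proteins accumulate, return to the nucleus and block CLOCK and BMAL1, so their own messengers fall again. Nr1d1 and Nr1d2 encode the REV-ERB repressors, which act on Arntl and Clock through elements shared with the ROR activators, and Dbp and Tef encode PAR bZIP activators that bind D-boxes and carry the rhythm to output genes. The master pacemaker is the suprachiasmatic nucleus of the hypothalamus, while hippocampus holds a subordinate clock. Transcripts such as Dbp, Per1, Per2 and Nr1d1 are well known to change with the hour of day, and Per1 is also induced by neuronal activity and by glucocorticoids.

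The promoters of the 2 genes with a probe past the FDR limit, Dbp and Cry1, are shown with those of Per1 and Per3, which hold an E-box and D-boxes, to set the known control elements beside the measured genes. Each is the 250 bases upstream of the annotated start in RefSeq, GRCm38.p6, read 5′ to 3′ on the strand of the gene, with every motif match in capitals. The letters searched on both strands were CACGTG for the E-box, CACGTT for its E′ variant, TTANGTAA for the D-box, TAGGTCA or TGGGTCA for the Rev-erb/ROR element and TGACGTCA for the cAMP response element. The Dbp window lies at chr7:45704997-45705246 on the plus strand, that of Cry1 at chr10:85185055-85185304 on the minus strand, that of the first Per1 start at chr11:69098699-69098948 on the plus strand, and that of Per3 at chr4:151044666-151044915 on the minus strand.
Dbp: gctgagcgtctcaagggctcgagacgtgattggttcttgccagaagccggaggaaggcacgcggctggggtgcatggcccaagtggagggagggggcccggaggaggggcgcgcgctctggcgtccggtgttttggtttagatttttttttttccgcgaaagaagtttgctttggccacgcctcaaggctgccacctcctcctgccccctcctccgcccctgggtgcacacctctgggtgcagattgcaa
Cry1: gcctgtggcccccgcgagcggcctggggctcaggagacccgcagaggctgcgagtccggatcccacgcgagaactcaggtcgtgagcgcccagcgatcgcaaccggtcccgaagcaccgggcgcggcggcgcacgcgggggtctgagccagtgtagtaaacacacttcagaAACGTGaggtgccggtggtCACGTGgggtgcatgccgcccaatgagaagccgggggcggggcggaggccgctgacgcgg
Per1: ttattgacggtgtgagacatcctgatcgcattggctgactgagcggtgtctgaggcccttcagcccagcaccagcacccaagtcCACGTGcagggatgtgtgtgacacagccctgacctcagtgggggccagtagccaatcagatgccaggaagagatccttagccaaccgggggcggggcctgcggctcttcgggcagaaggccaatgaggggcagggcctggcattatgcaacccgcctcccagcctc
Per3: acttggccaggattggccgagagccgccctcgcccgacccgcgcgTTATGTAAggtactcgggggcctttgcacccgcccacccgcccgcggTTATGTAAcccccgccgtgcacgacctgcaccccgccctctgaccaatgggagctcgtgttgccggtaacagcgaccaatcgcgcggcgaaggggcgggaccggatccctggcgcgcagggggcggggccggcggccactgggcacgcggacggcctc

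In these windows Cry1 held an E-box from base -60 to -55 and an E′ box from -79 to -74, counted back from the start. Per1 held an E-box from -166 to -161, and Per3 held 2 D-boxes, which began at -205 and -158. Tef held an E-box upstream of both of its annotated starts, and Cry2 and Nr1d1 held an E′ box each. No match was found in the windows of Dbp, Clock or Nr1d2. Promoter entries were found for 9 of the 10 genes, Per2 being the one without. Over 32851 promoter windows of the same length an E-box was found in 6.02%, an E′ box in 3.85%, a D-box in 2.06%, a Rev-erb/ROR element in 5.38% and a cAMP response element in 1.55%. A match is a run of letters in a window and was not tested as a binding site.

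Signal was found for nearly all clock probes. A probe was taken as present where both of its dyes were brighter than 95% of the 314 negative controls of an array. This held on each of the 10 arrays for 17 of the 18 probes, and on 9 arrays for the exception, Clock A_52_P161365. No member spot was saturated on any array. The hippocampal markers of the tissue check were all measured, and so were the 6 markers of the suprachiasmatic nucleus and hypothalamus, of which Six6 alone was not well above background on any array. Dclk1 itself had 4 probes, with log2 ratios from -0.08 to -0.06 and none past the limit, and where these probes lie relative to the transgene was not determined here. Directions are given as the labels assign them, and they run opposite to the directions that the study gives for this platform. Tmem254a differed between the genotypes on both platforms and was higher in TG on ABI (log2 difference 1.81, FDR 0.0251), yet lower in TG on Agilent as labelled (log2 ratio -0.99, FDR 1.01e-05). If the first 5 arrays by label were swapped with the last 5, this would turn the sign of every ratio below. It would leave every mean size over the 10 arrays as it is. The channels would then belong to other mice, so per-mouse values and fits without 1 mouse would change too. The log2 signal of Dbp, for example, was 9.56 in WT5 and 10.22 in TG4 as labelled, and 10.22 and 9.56 after the swap. The labels were kept, and which assignment is right was not settled. All 5 arrays with WT in Cy3 came from 1 slide series and all 5 with TG in Cy3 from another, so the slide series and the dye orientation cannot be told apart.

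Of the 18 clock probes, 2 passed an FDR of 0.1 in limma's test on the 10 log ratios, Dbp A_51_P180492 upward and Cry1 A_51_P302204 downward as labelled. Over all probes 3055 of 41174, or 7.42%, passed in either direction, with 3.66% upward and 3.76% downward, so 2 of 18 (11.1%) is near the background. An unadjusted p under 0.05 was found for 6 of the 18, against 18.9% of all probes. The median log2 ratio was -0.009 over the clock probes and 0.002 over all probes. The number of arrays and mice limits the precision of every value. The sign of the mean was positive for 8 clock probes and negative for 10. These p-values treat the 10 arrays as separate observations although each mouse is on 2 of them. With 1 value per mouse, made from the single channels, none of the 18 passed by limma, and 24 of the 41174 probes did (0.0583%). With the WT mouse as a random block 6 clock probes passed (Dbp, Cry1 A_51_P302204, Per1, Per2 A_51_P282760 and Clock A_52_P334670 and A_52_P334677) beside 5970 of all probes, and with the TG mouse as the block 2 passed beside 4527. These blocks had no dye term, and their consensus correlations were negative, -0.25 and -0.14. A negative correlation makes the SE of the mean smaller, so these are not stricter counts. With a dye term the correlations were -0.03 and 0.14, and 4 and 1 clock probes passed. The number was 2 with 1 value per WT mouse, Dbp and Cry1 A_51_P302204, and Per1 (FDR 0.102), Per2 A_51_P282760 (0.245) and both Clock probes (0.190 and 0.129) did not pass. Each TG mouse still enters 2 of the values per WT mouse, so these values are not independent. In the per-mouse values the WT and TG groups overlapped for all 18 clock probes, while they did not overlap for 2.08% of all probes.

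**Figure D1:**
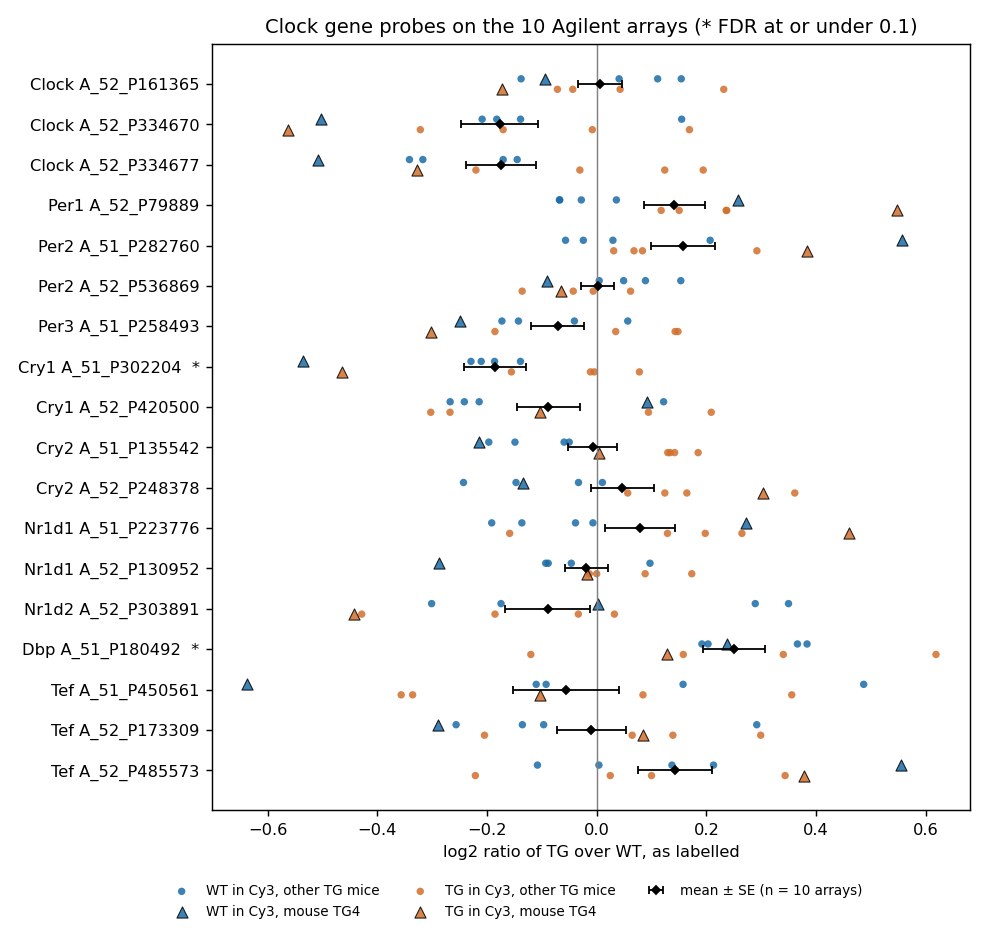
Log2 ratio of TG over WT (x axis, as labelled) of each of the 18 clock gene probes (rows) on each of the 10 Agilent arrays, colored by dye orientation. Triangles mark the 2 arrays of mouse TG4, black diamonds the mean with its SE over 10 arrays, and a star an FDR at or under 0.1. Dbp lies above 0 on 9 arrays and Cry1 A_51_P302204 below 0 on 9.

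Dbp, the PAR bZIP output gene, had the largest mean ratio and the smallest p-value of the 18 probes. Its probe A_51_P180492 lies on chromosome 7 and gave mean pixel intensities from 725 to 1507 in Cy3 and from 635 to 2380 in Cy5. Its log2 ratio ranged from -0.12 on TG2/WT1 over a median of 0.22 to 0.62 on TG5/WT6 and was above 0 on 9 of 10 arrays. The mean was 0.25 ± 0.06 (SE, n = 10), a 1.19-fold higher signal in TG as labelled, with an FDR of 0.0421 in limma. Per mouse, the normalised log2 signal was 9.93 in WT1, 9.95 in WT3, 9.77 in WT4, 9.56 in WT5 and 9.81 in WT6. It was 9.83 in TG1, 9.98 in TG2, 10.03 in TG3, 10.22 in TG4 and 10.22 in TG5. The TG values other than TG1 lay above every WT value, WT5 was the lowest mouse, and TG1 lay below WT1 and WT3. With 1 value per mouse the group means were 9.81 ± 0.16 in WT and 10.06 ± 0.17 in TG (SD, n = 5), and limma gave an FDR of 0.481, so the difference was not past the limit when mice were the unit. It also lost the limit without WT3 (FDR 0.163), WT4 (0.185), WT5 (0.118), TG1 (0.102), TG3 (0.127), TG5 (0.125) or array WT3/TG5 (0.1003), although the mean ratio stayed between 0.19 and 0.30 whichever mouse was left out.

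Cry1, a repressor of the CLOCK and BMAL1 pair, had 2 probes on chromosome 10, of which 1 passed. Probe A_51_P302204 ranged from -0.54 on WT1/TG4 over a median of -0.17 to 0.08 on TG2/WT1 and was below 0 on 9 of 10 arrays. Its mean pixel intensities were low beside those of Dbp, from 86 to 143 in Cy3 and from 61 to 112 in Cy5. The mean log2 ratio was -0.19 ± 0.06 (SE, n = 10), with an FDR of 0.0970 in limma, just inside the limit. Both arrays of TG4 were the lowest, at -0.54 and -0.46, and the next lowest was -0.23. Probe A_52_P420500, 11764 bases away in the coordinates of the array file, ranged from -0.30 to 0.21 and had a mean of -0.09 ± 0.06 and an FDR of 0.469. With the probes averaged per gene, Cry1 had a log2 ratio of -0.14 ± 0.04 and an FDR of 0.0881, and Dbp and Cry1 were the 2 of the 10 genes that passed, against 8.2% of all genes. For A_51_P302204 the per-mouse log2 signal was 6.54 in WT1, 6.58 in WT3, 6.67 in WT4, 6.70 in WT5 and 6.59 in WT6. It was 6.56 in TG1, 6.54 in TG2, 6.48 in TG3, 6.11 in TG4 and 6.47 in TG5. TG4 stood below all others, while TG1 and TG2 lay at or just above the lowest WT mouse. Without TG4 the mean ratio was -0.11 and the FDR 0.197, and leaving out any 1 of the other mice except WT1 also ended the call, with the largest FDR, 0.326, without WT3. With 1 value per mouse the FDR was 0.605. The handling of background also mattered for this dim probe. With normexp background correction the log2 ratio was -0.18 and limma's FDR 0.107. With the scanner software's log ratio they were -0.47 and 0.119.

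Cry2, the paralog of Cry1, also had 2 probes, and neither passed. Probe A_51_P135542 ranged from -0.21 to 0.18 with a mean of -0.008 ± 0.05, and A_52_P248378 from -0.24 to 0.36 with a mean of 0.05 ± 0.06 (SE, n = 10). In both probes the arrays of the 2 dye orientations lay apart, with means below 0 where WT was in Cy3 and above 0 where TG was.

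The Period genes encode the partners of CRY in the repressor complex, and none of their 4 probes passed. Per1 A_52_P79889 ranged from -0.07 on WT6/TG1 over a median of 0.13 to 0.55 on TG4/WT3, with a mean of 0.14 ± 0.06 and an FDR of 0.188 in limma. Its value on TG4/WT3 stood apart, since the next highest was 0.26 on the other array of TG4. Per2 A_51_P282760 ranged from -0.06 on WT4/TG2 over a median of 0.08 to 0.56 on WT1/TG4, with a mean of 0.16 ± 0.06 and an FDR of 0.163. Its 2 highest values, 0.56 and 0.38, were again the arrays of TG4, and without TG4 the mean ratio was 0.08 for each of these probes. The other Per2 probe, A_52_P536869, ranged from -0.14 to 0.15 around a mean of 0.002 ± 0.03. Per3 A_51_P258493 ranged from -0.30 to 0.15 with a mean of -0.07 ± 0.05 and an FDR of 0.492. Per mouse, Per2 A_51_P282760 was 7.16 in WT1, 7.33 in WT3, 7.39 in WT4, 7.45 in WT5 and 7.39 in WT6, and 7.58 in TG1, 7.41 in TG2, 7.45 in TG3, 7.71 in TG4 and 7.36 in TG5. Only TG1 and TG4 lay above all WT mice, and TG2, TG3 and TG5 lay among them.

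Clock, the activator subunit, had 3 probes on chromosome 5. The 2 probes that lie 396 bases apart gave nearly equal means: A_52_P334670 had -0.18 ± 0.07 (range -0.56 to 0.17, FDR 0.193) and A_52_P334677 had -0.17 ± 0.06 (range -0.51 to 0.19, FDR 0.156). Each was below 0 on 8 of 10 arrays, and neither passed. The third probe, A_52_P161365, is 41637 bases or more away and was well above background in both dyes on 6 of the 10 arrays. It ranged from -0.17 to 0.23 with a mean of 0.006 ± 0.04. Without TG4 the means were -0.09, -0.11 and 0.04. A probe designed on a full-length clone annotated as the Clock product, which carries no accession of the gene and was not counted as a member, had a log2 ratio of -0.12 ± 0.05 and an FDR of 0.242.

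**Figure D2:**
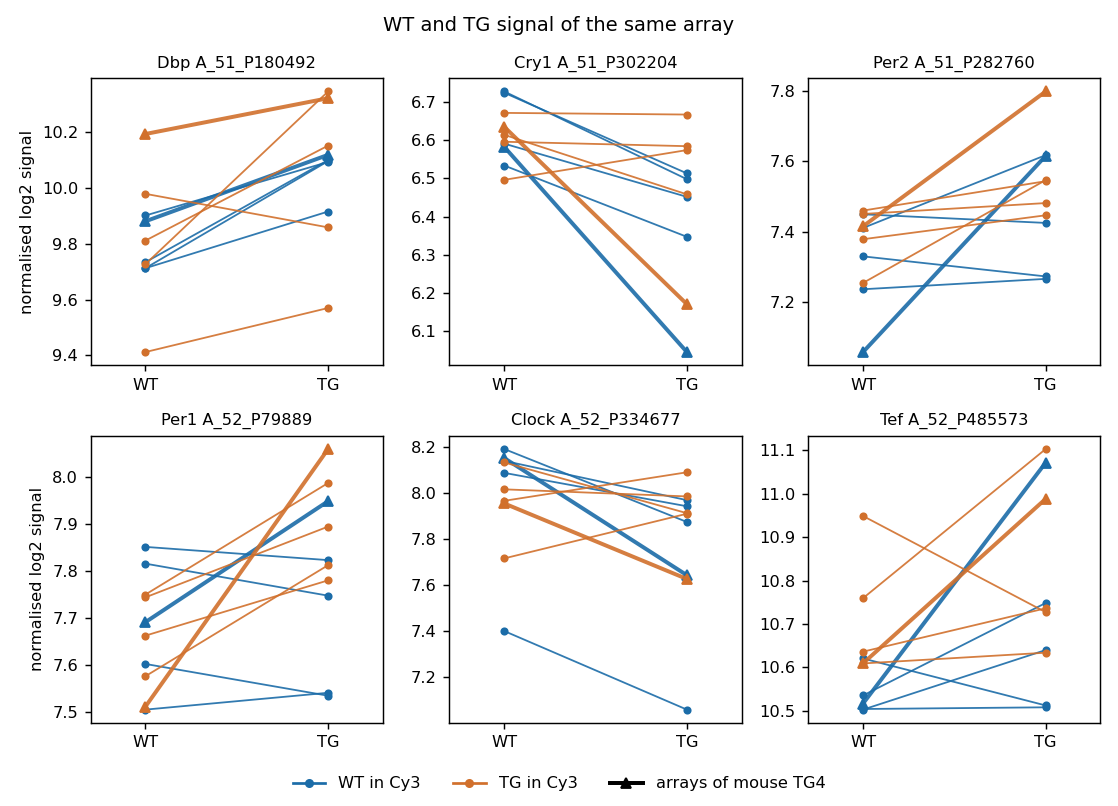
Normalised log2 signal (y axis, own scale per panel) of the WT and the TG mouse of the same array, joined by a line, for the probe with the smallest p of Dbp, Cry1, Per2, Per1, Clock and Tef. Color gives the dye orientation and thick lines with triangles the 2 arrays of TG4. Dbp rises from WT to TG on 9 of 10 arrays, and the steepest lines of Cry1 and Per2 are those of TG4.

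The REV-ERB genes showed no probe past the limit. Nr1d1 A_51_P223776 ranged from -0.19 on WT4/TG2 to 0.46 on TG4/WT3 with a mean of 0.08 ± 0.06, and A_52_P130952 ranged from -0.29 on WT1/TG4 to 0.17 on TG3/WT4 with a mean of -0.02 ± 0.04. Nr1d2 A_52_P303891 had a wide spread, from -0.44 on TG4/WT3 to 0.35 on WT6/TG1, with a mean of -0.09 ± 0.08 and an FDR of 0.627. For this probe the 95% interval of the mean ran from -0.28 to 0.10. A clone probe annotated as an NR1D1 product, also not counted as a member, had -0.005 ± 0.06 and an FDR of 0.983.

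Tef, the second PAR bZIP gene, had 3 probes, and none passed. A_52_P485573 ranged from -0.22 to 0.55 and had a mean of 0.14 ± 0.07 (FDR 0.289). A_51_P450561 ranged from -0.64 on WT1/TG4 to 0.49 on WT4/TG2 with a mean of -0.06 ± 0.10. A_52_P173309 ranged from -0.29 to 0.30 with a mean of -0.01 ± 0.06, and was well above background in both dyes on 7 of the 10 arrays. On WT1/TG4 the first probe had its highest value, 0.55, and the other two their lowest, -0.64 and -0.29. Per mouse as labelled, A_51_P450561 was highest in TG2, at 7.74, against 6.95 to 7.14 in the other TG mice and 7.05 to 7.36 in the WT mice. Averaged per gene, Tef had a log2 ratio of 0.03 ± 0.04. A clone probe annotated as the Tef product, also not counted as a member, had 0.06 ± 0.06 and an FDR of 0.719.

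Probes of one gene were set against each other array by array. Of 10 pairs within Clock, Per2, Cry1, Cry2, Nr1d1 and Tef, none differed after Benjamini-Hochberg adjustment over the 10 pairs (exact sign-flip permutation, two-sided, smallest p that 10 arrays allow 0.00195). The smallest p-values belonged to log2 differences of 0.18 ± 0.18 (SD, n = 10; exact p = 0.0176, adjusted 0.137) and 0.18 ± 0.20 (exact p = 0.0273, adjusted 0.137), both between Clock A_52_P161365 and the other Clock probes. The largest difference was -0.20 ± 0.55, between Tef A_51_P450561 and A_52_P485573 (exact p = 0.283, adjusted 0.378). The 2 Per2 probes differed by 0.16 ± 0.27 (exact p = 0.123, adjusted 0.378) and the 2 Cry1 probes by -0.10 ± 0.28 (exact p = 0.303, adjusted 0.378). Equal means do not show that probes moved together. Over the arrays the Pearson correlation was -0.78 for Per2, -0.02 for Cry1, 0.06 for Nr1d1 and 0.78 for Cry2. The Clock pairs had 0.66, 0.44 and 0.70. Tef A_52_P485573 had -0.78 with A_51_P450561 and -0.64 with A_52_P173309, and these last 2 had 0.75 with each other. Probe coordinates are those of the array file, which names no genome build, and were used only for the spans of probes and the distances between them. In these coordinates the probes Cry2 A_51_P135542, Nr1d1 A_51_P223776 and Tef A_52_P173309 span more bases than the 60 of each other member probe.

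Across mice, TG4 was the most extreme animal for the clock probes, as it was over all probes. It was the highest of the 10 mice for 4 probes and the lowest for 8, that is 12 of 18, against 36.7% of all probes. The largest log ratio lay on an array of TG4 for 12 of 18 clock probes, against 32.0% of all probes. TG2 was extreme for 7 probes, against 18.7% of all probes, and no other mouse for more than 4. TG4 was the lowest mouse for Clock A_52_P161365 and A_52_P334670, Cry1 A_51_P302204, Cry2 A_51_P135542, Nr1d1 A_52_P130952, Nr1d2 and both Tef probes A_51_P450561 and A_52_P173309. It was the highest for Per1, Per2 A_51_P282760, Nr1d1 A_51_P223776 and Tef A_52_P485573. Without its 2 arrays the mean ratio came closer to 0 for 12 probes and moved away for 6, and 1 of the 18 passed, Dbp (log2 ratio 0.27, FDR 0.0748), beside 2015 of all probes (4.89%). As labelled, arrays WT1/TG4 and TG4/WT3 share TG4. If the arrays are exchanged, the same 2 arrays would share WT5, and the counts of TG2 would rest on other channels.

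**Figure D3:**
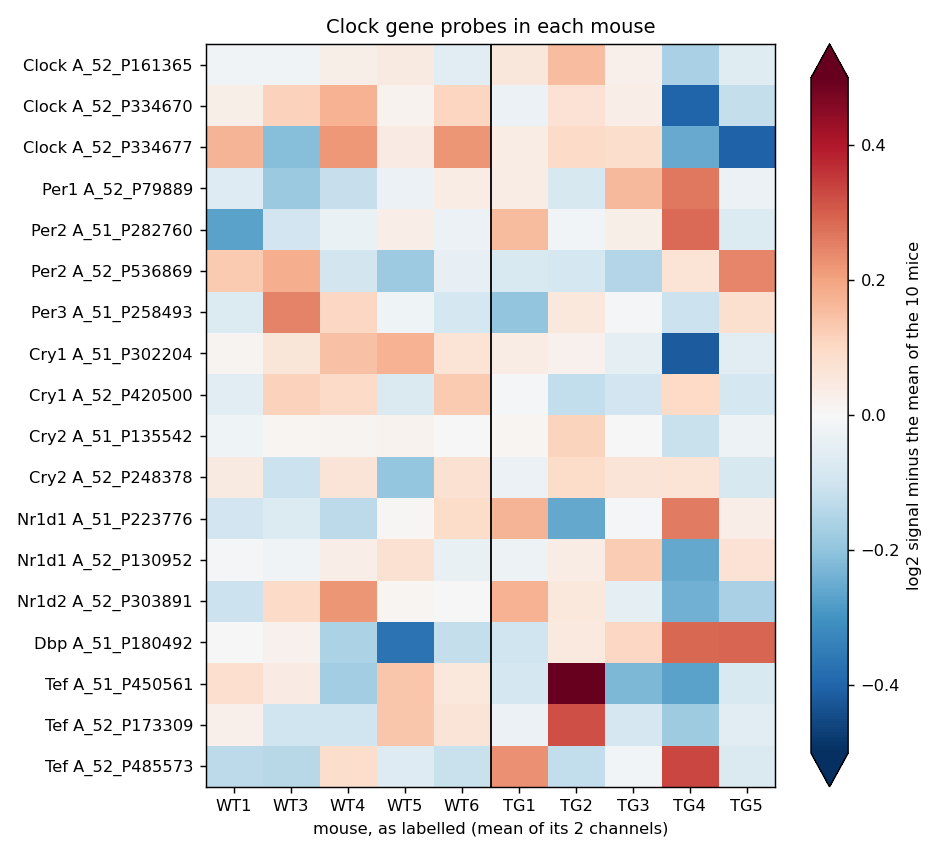
Log2 signal of each clock probe (rows) in each mouse (columns, mean of its 2 channels), minus the mean of the 10 mice, with red above and blue below it. As labelled, TG4 holds the highest or lowest value of 12 of the 18 rows, and the strongest single value is TG2 in Tef A_51_P450561.

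**Figure D4:**
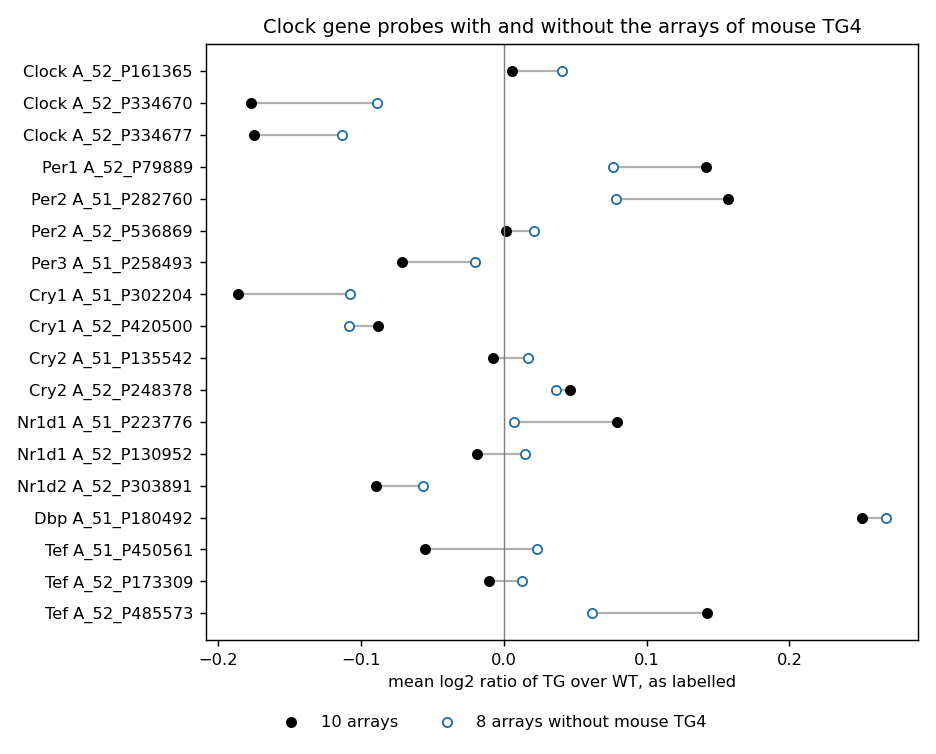
Mean log2 ratio of TG over WT of each clock probe (rows) over all 10 arrays (filled) and over the 8 arrays without mouse TG4 (open). Dbp stays at 0.25 and 0.27, while Cry1 A_51_P302204 goes from -0.19 to -0.11 and Per2 A_51_P282760 from 0.16 to 0.08.

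The dye orientations were compared for each probe, because 5 of the arrays carry WT in Cy3 and 5 carry TG. Dbp gave 0.28 ± 0.09 over the 5 arrays with WT in Cy3 and 0.23 ± 0.27 over the 5 with TG in Cy3 (SD). Cry1 A_51_P302204 gave -0.26 ± 0.16 and -0.11 ± 0.21, and Per1 gave 0.03 ± 0.14 and 0.26 ± 0.17. The mean changed sign between the orientations for 8 of the 18 probes. The plainest case was Cry2, whose A_52_P248378 had -0.11 ± 0.10 and 0.20 ± 0.13 and whose A_51_P135542 had -0.13 ± 0.08 and 0.12 ± 0.07. In a fit with a dye term, that term passed FDR 0.1 for these 2 probes alone of the 18, against 22.6% of all probes. The orientations were balanced, so a dye effect cancels in the means over 10 arrays. Within the 5 arrays with WT in Cy3 alone, 3 clock probes passed (Clock A_52_P334677, Cry1 A_51_P302204 and Dbp), beside 9.59% of all probes. Within the 5 with TG in Cy3 none of the 18 passed, beside 8.14% of all probes. Inside 1 orientation a genotype difference cannot be told apart from a dye effect or from the slide series.

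**Figure D5:**
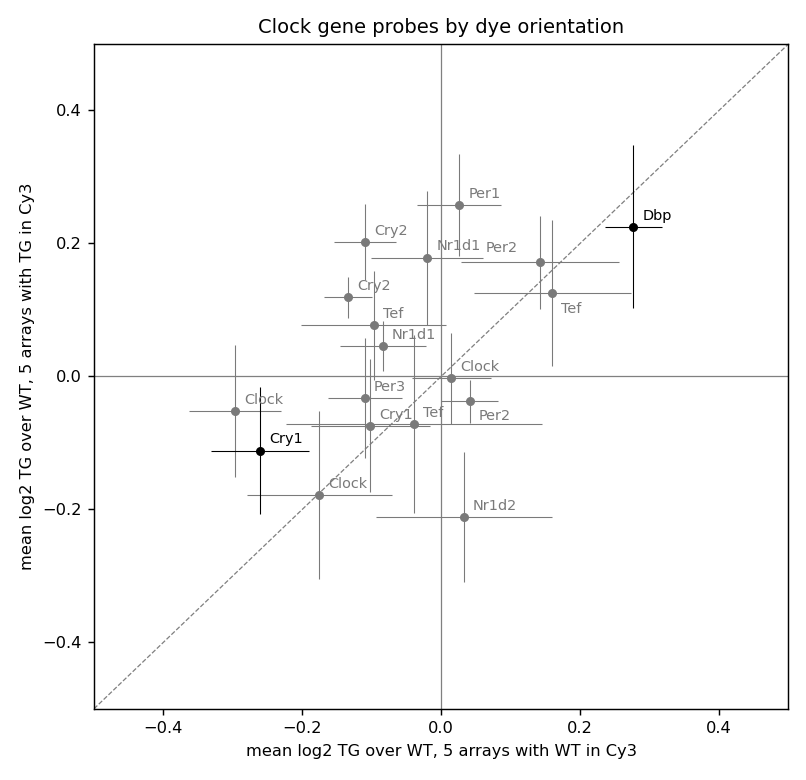
Mean log2 ratio of TG over WT of each clock probe over the 5 arrays with WT in Cy3 (x axis) and over the 5 with TG in Cy3 (y axis), with SE bars, and probes past FDR 0.1 in black. The dashed line marks equal means. Both Cry2 probes lie in the upper left, negative in one orientation and positive in the other, while Dbp lies near the line at 0.28 and 0.23.

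Among 33 other measured clock and clock-output genes, 4 of 54 probes passed (7.41%), 1 upward and 3 downward, beside 7.42% of all probes, and their median log2 ratio was -0.04. Arntl, the partner of Clock, had -0.12 ± 0.05 (FDR 0.248) and Npas2, which can replace Clock in forebrain, had -0.11 ± 0.06 (FDR 0.325). The ROR activator Rora had -0.10 ± 0.07 and -0.22 ± 0.12 on its 2 probes, and Rorb had 0.02 ± 0.05. Hlf, the remaining PAR bZIP gene, had 0.09 ± 0.06, and Bhlhe40, an E-box repressor, had 0.04 ± 0.07. Bhlhe41 had 0.005 ± 0.03 on A_51_P451176 (FDR 0.963) and -0.02 ± 0.02 on A_52_P618912 (FDR 0.766). Nfil3, a D-box repressor that competes with DBP and TEF, had 0.13 ± 0.04 on A_51_P111492 (FDR 0.0904, above 0 on 9 of 10 arrays) and 0.02 ± 0.03 on A_52_P500027 (FDR 0.797). The 3 probes that fell were Fbxw11, a ubiquitin ligase subunit that acts on PER proteins, at -0.40 ± 0.05 (FDR 0.00697, below 0 on all 10 arrays), the deacetylase Sirt1 at -0.19 ± 0.04 (FDR 0.0362), and Skp1, a subunit of the same class of ligases, at -0.26 ± 0.08 (FDR 0.0907). Without TG4 the calls of Nfil3 (log2 ratio 0.10, FDR 0.260) and Skp1 (-0.15, FDR 0.135) ended, while Arntl was -0.07, Npas2 -0.05, Rora -0.02 and -0.08 and Bhlhe40 -0.07. None of the 54 passed with 1 value per mouse.

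Groups of genes that respond to activity and to glucocorticoids were read beside the clock, since Per1 is a target of both. Of 26 probes of 19 immediate early genes 1 passed, Arc at 0.30 ± 0.05 (FDR 0.0205), with a median over the list of 0.03. Of 20 probes of 15 glucocorticoid-induced genes 3 passed: Mt1 at 0.65 ± 0.15 and Mt2 at 0.71 ± 0.15 upward, both metallothioneins, and Sgk1, a kinase, at -0.25 ± 0.05 downward. The median over that list was 0.01. Of all probes 7.42% passed, and with 1 value per mouse none of these 4 genes did (FDR 0.336 to 0.401).

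Cell type markers were counted because bulk tissue mixes cells, and in bulk RNA fewer cells of a type and less RNA per cell cannot be told apart. Of 9 astrocyte probes 3 passed upward (Aldh1l1 and both Aqp4 probes; list median 0.16, and 0.10 without TG4), and of 9 oligodendrocyte probes 1 passed downward (Mbp; list median -0.20, and -0.05 without TG4), beside 7.42% of all probes. None of these 4 probes passed with 1 value per mouse (FDR 0.336 to 0.620). The summed astrocyte level, in units of normalised signal with the probes of a gene averaged, ranged from 3875 to 4514 in WT and from 4036 to 5327 in TG, and the oligodendrocyte level from 7887 to 10034 in WT and from 7031 to 8368 in TG. Of the other lists, hippocampal neurons had 2 of 17 probes past the limit, choroid plexus 0 of 9, thalamus 2 of 10, suprachiasmatic nucleus and hypothalamus 0 of 7, microglia 3 of 10, blood 0 of 3 and meninges and vessels 1 of 8. Rora and Rorb are counted both as clock genes and in the thalamus and hypothalamus lists. The choroid plexus level ranged from 1663 to 4643 in WT and from 1371 to 4156 in TG. The part of these cell types in the values of Dbp and Cry1 was not tested.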

How the data were processed

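RNA of both hippocampi of each mouse was hybridised to 10 Agilent two-color arrays. Per the file headers, Feature Extraction read each spot in both dyes as a mean and a median intensity over its pixels, and the authors deposited these intensities without normalization, together with a log10 ratio of Cy5 over Cy3 that the scanner software had detrended and normalized for dye. In R 4.3.3 with limma 3.58.1, mean intensities of 41174 probes, without background correction or filter, were normalized by loess within arrays, spots of a probe were averaged, and log2 ratios of TG over WT were tested against 0 with the Benjamini-Hochberg FDR over all probes and a limit of 0.1, after the study's model for separate arrays. Deposited ABI signal intensities served 1 check of the labels. The 80 Illumina per-sample columns were not used, since no label pairs them with a mouse. Per-mouse values are means of 2 normalised channels. The 2 arrays of a mouse share that animal, so mouse numbers pair the arrays. All member probes, the probes past the limit in a list of other clock genes and 8 genes of that list are named. The members and the lists were chosen with earlier results of these data known. One marker gene is not reported here and was left out of its list. The scripts were tested on simulated data. Promoters are RefSeq's, GRCm38.p6. The alternatives changed the background correction, normalization, pixel statistic, spots, probes, model, block, mice, arrays and limit.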

Additional observations from a re-analysis of the deposited data

Results flagged for a closer look

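In 54 groups of values of the clock probes (10 arrays, 5 WT mice or 5 TG mice for each probe) 3 held a sample far from the others by Dixon's criterion, which chance alone meets in about 5% of groups. The Per1 log2 ratio on array TG4/WT3 was 0.55, against -0.07 to 0.26 on the other 9 arrays. The Cry1 A_51_P302204 log2 signal in TG4 was 6.11, against 6.47 to 6.56 in the other TG mice. The Tef A_51_P450561 log2 signal in TG2 was 7.74, against 6.95 to 7.14 in the other TG mice. These 3 hold for the mice as labelled. After the exchange of arrays this Tef probe was 6.97 in TG2 and highest in WT3, at 7.40. The Cry1 value of 6.11 was then that of WT5.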

How the results depend on the processing

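Dbp stayed above 0 and Cry1 A_51_P302204 below 0, under every alternative run (with the sign of the labels kept where arrays were exchanged), with log2 ratios of 0.19 to 0.36 and of -0.47 to -0.11 and FDRs of 0.0161 to 0.596 and of 0.0367 to 0.664. Dbp passed in 31 of 41 alternatives and Cry1 A_51_P302204 in 17 of 42. The main counts were 2 of the 18 clock probes, 3055 of all probes and 4 of the 54 probes of other clock genes. With normexp background correction 1 clock probe passed, beside 2962 of all probes. With median centring 1 clock probe, 1335 of all probes and 0 probes of other clock genes passed. With the scanner software's log ratio these were 1 clock probe, 2412 of all probes and 2 probes of other clock genes. Robust regression gave 2, 3350 and 7, and an FDR of 0.05 gave 1, 1205 and 2. Within the 5 arrays with TG in Cy3, chosen after seeing the data, 0 clock probes and 3351 of all probes passed. With the WT mouse as a random replicate block 6 clock probes, 5970 of all probes and 10 probes of other clock genes passed, with a consensus correlation of -0.25. With the TG mouse as the block 2 clock probes, 4527 of all probes and 8 probes of other clock genes did, with a correlation of -0.14. Blocks with a dye term, also added after seeing the data, gave 4 clock probes beside 4088 of all probes for the WT mouse. For the TG mouse they gave 1 clock probe and 2 probes of other clock genes, beside 2133 of all probes. The WT mouse block with the dye term after the exchange of arrays gave 1, 1762 and 2. With 1 value per WT mouse, where each TG mouse still enters 2 values, 2 clock probes and 1774 of all probes passed. With 1 value per mouse 0 clock probes, 24 of all probes and 0 probes of other clock genes passed, and after the exchange 0, 11 and 0. Leaving out 1 mouse or 1 array gave 0 to 3 clock probes, 282 (without WT4) to 3398 of all probes and 1 to 8 probes of other clock genes. No clock probe passed without WT3, WT4, WT5, TG1, TG3, TG5 or array WT3/TG5. All calls numbered 366 without WT3, 825 without WT5, 1272 without TG1, 1024 without TG2, 1057 without TG3, 2015 without TG4 and 812 without TG5, and 1218, 1210, 1117, 1850 and 1678 without arrays WT3/TG5, WT4/TG2, TG1/WT5, TG3/WT4 and TG4/WT3.

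The other sign changes were among probes that passed in neither fit. With median centring, which moved the median of all probes to -0.03, Clock A_52_P161365 was -0.071, Nr1d1 A_52_P130952 0.014 and Nr1d2 0.0025. With the scanner's log ratio Clock A_52_P161365 was -0.18 and Per2 A_52_P536869 -0.00028, and with robust regression the latter was -0.00013. With WT in Cy3 alone Cry2 A_52_P248378 was -0.11, Nr1d1 A_51_P223776 -0.020 and Nr1d2 0.033. With TG in Cy3 alone Clock A_52_P161365 was -0.0029, Per2 A_52_P536869 -0.038, Cry2 A_51_P135542 0.12, Nr1d1 A_52_P130952 0.046 and Tef A_52_P173309 0.077. Averaged per gene, Clock was -0.12, Cry2 0.019, Nr1d1 0.030 and Tef 0.026. Leaving out 1 mouse or array, Clock A_52_P161365 ran from -0.027 to 0.046, Per2 A_52_P536869 from -0.015 to 0.030, Cry2 A_51_P135542 from -0.029 to 0.017, Nr1d1 A_52_P130952 from -0.047 to 0.015, Tef A_51_P450561 from -0.17 to 0.024 and Tef A_52_P173309 from -0.087 to 0.045. The cause of these changes was not tested. A scan-date block was not run because all arrays share 1 scan day, and the ABI alternatives were not run because no member had a named ABI probe.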
